A study of Mus musculus with 20 samples.

Results

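The comparison described here sets normal mouse liver (con) against livers labelled as high-content colorectal liver metastasis (Ht). It was chosen by the sample labels alone and rests on 5 of the 20 libraries of the series. The 2 con libraries came from liver at day 0 of mice given normal saline, and the 3 Ht libraries from high-content tumor at day 12 after 1000000 MC38 cells. All 5 are labelled as WT liver of male mice. The methods describe injection into the spleen and give C57BL/6 mice. MC38 (written Mc38 in the study) is a colon adenocarcinoma line of C57BL/6 mice, so tumor cells and host share a genome and reads cannot be divided between them by sequence. Sex is given differently in the sources: the labels say male and the methods say female. According to the methods, Ht replicates 1 and 3 were identical by design, although their count columns differed. They were therefore added together as 1 sample, and Ht was tested as 2 samples. Each library was made from an aliquot of tissue with no sorting of cells. Saline at day 0 differs from tumor at day 12 in time as well as in treatment, and these cannot be told apart.

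Hepatocytes make most plasma proteins, run the urea cycle, make bile acids and clear drugs. They border the sinusoids, wide capillaries with a fenestrated endothelium that also hold Kupffer cells, the resident macrophages, and stellate cells, which store vitamin A. A metastasis brings in dividing tumor cells, and around them fibroblast-like cells that lay down collagen, new vessels, and leukocytes recruited from blood. Bulk RNA-Sequencing reads the sum of all of these, and in bulk tissue fewer cells of a type and less RNA per cell cannot be told apart. The methods describe high-content samples as mostly tumor, so they were chosen to hold little liver.

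The con libraries held 16460310 and 17041650 counts, and the Ht libraries 16603151, 18246623 and 16880403. Levels are given as CPM, counts divided by library size and expressed per 1000000, scaled by TMM, with con replicate 1 before con replicate 2, and the sum of Ht replicates 1 and 3 before Ht replicate 2. Differences were tested with the quasi-likelihood method of edgeR, adjusted by Benjamini-Hochberg over 17187 genes. A gene is said to be higher, lower, to rise or to fall only where its adjusted p was no more than 0.05 and it differed 2-fold or more. By this rule 4437 genes (25.8% of those tested) were higher in Ht than in con and 4139 (24.1%) were lower. These shares are the background against which each count below stands. A few genes filled much of the con libraries. The 10 genes with most counts took 20.1% and 18.0% of all counts in con, and 4.57% and 4.58% in Ht. TMM compensates for this, with factors of 0.686 and 0.71 in con and 1.603 and 1.575 in Ht. Scaled by total counts instead, the log2 fold change of a gene was higher by a median of 1.18, the median over all genes moved from 0.09 to 1.28, and 8822 genes were higher and 2249 lower. A log2 fold change between about -1.2 and 0 therefore changes sign with the scaling, and the value under total-count scaling is given below for each named gene whose call it changes to not called or turns; genes not called under TMM that turn are given with the other alternatives.

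**Figure D1:**
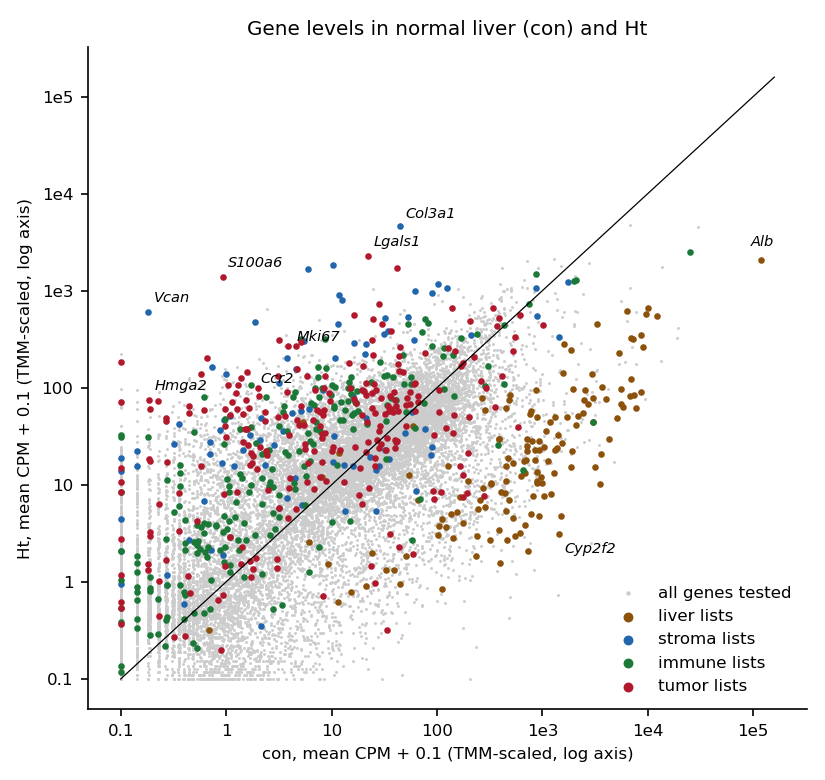
Mean level of each of the 17187 tested genes in con (horizontal axis) and in Ht (vertical axis), in TMM-scaled CPM with 0.1 added, both on log axes; colored points are members of the liver, stroma, immune and tumor lists, and the line marks equal levels. The liver lists lie below the line except for Lcn2 and a few genes near it, and the collagens, S100a6, Lgals1 and cell cycle genes lie above it.

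Transcripts of hepatocyte plasma proteins fell as a whole. All 30 plasma protein genes were lower in Ht (median log2 fold change -4.79; background 24.1% lower), and con and Ht samples did not overlap for any of them, as for 85.7% of all tested genes. Summed over the list, the level went from 248876 and 212225 CPM in con to 5369 and 7931 CPM in Ht. Alb (ENSMUSG00000029368, chr5:90460897-90476602, GRCm38), which encodes albumin, stood at 129515 and 108806 CPM in con and 1627 and 2498 CPM in Ht (log2 fold change -5.85, SE 1.36, adjusted p = 0.00459). It took 8.89% and 7.72% of all counts in con and 0.261% and 0.393% in Ht, so liver transcripts were reduced but still read in Ht. Fgb, a chain of fibrinogen, fell from 7896 and 6055 CPM to 309 and 349 (log2 fold change -4.41, SE 0.74, adjusted p = 0.000863). Apoa2, an apolipoprotein of high-density lipoprotein, fell the most of the list, from 6220 and 7412 CPM to 75.5 and 90 (log2 fold change -6.36). Trf, the iron carrier transferrin, fell the least, from 616 and 366 CPM to 84.7 and 83.9 (-2.54), and is the member whose call was lost under total-count scaling (-1.35). Without the summed Ht sample the adjusted p of Alb was 0.0606 (log2 fold change -5.57, adjusted p = 0.0606) and that of Trf 0.0637, and Trf was also not called without con replicate 1 or Ht replicate 2 (log2 fold change -2.12, adjusted p = 0.0556; log2 fold change -2.53, adjusted p = 0.0628). Ht replicate 2 was above the summed Ht sample for Alb, Apoa1 and Apob, and its whole set of liver lists took 1.99% of counts against 1.37% in the summed sample and 27.2% and 24.3% in con.

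Transcription factors that define the hepatocyte were lower without exception: 18 of 18, with a median of -4.86. Hnf4a, the nuclear receptor at the centre of hepatocyte identity, went from 1459 and 1360 CPM to 21.8 and 43.2 (log2 fold change -5.44, SE 0.81, adjusted p = 0.000482). Foxa2, a pioneer factor of the liver, fell from 37.7 and 51.9 CPM to 0.709 and 1.01 (-5.73). Tbx3 was the member with the smallest change (36.3 and 71.6 CPM in con and 12.8 and 12.1 CPM in Ht, -2.12), and its call did not hold under total-count scaling (-0.94).

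Genes of intermediary metabolism had a lower median than plasma protein genes. All 25 genes of the urea cycle and amino acid breakdown were lower, with a median log2 fold change of -6.69. Cps1, the entry enzyme of the urea cycle, stood at 8324 and 7157 CPM in con and 52.8 and 70 CPM in Ht (log2 fold change -6.98, SE 1.21, adjusted p = 0.000978). Hal, which breaks down histidine, had the largest drop of the list, from 784 and 674 CPM to 1.7 and 2.26 (-8.53). Glud1, glutamate dehydrogenase, had the smallest, from 1914 and 1828 to 210.2 and 277 (-2.94), and is an enzyme that most cell types use.

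Bile acid synthesis and transport showed 13 of 13 tested genes lower (median -6.35). Cyp7a1, the rate-limiting enzyme of the pathway, differed between the con samples and was near 0 in Ht (71.5 and 149 CPM in con and 1.1 and 0.383 CPM in Ht, log2 fold change -7.12, SE 1.09, adjusted p = 0.000534). Slc10a1, the bile acid importer of the sinusoidal membrane, fell from 511 and 703 CPM to 2.57 and 3.62 (-7.62). Abcb4, the phospholipid exporter of the canaliculus, kept the largest share of its con level (312 and 456 CPM in con and 21.7 and 37.4 CPM in Ht, -3.70). Drug metabolism followed the same direction in 22 of 22 genes (median -6.24). Cyp2f2, a cytochrome of periportal hepatocytes, fell by the most, from 1292 and 1598 CPM to 1.19 and 4.87 (log2 fold change -8.91, SE 1.24, adjusted p = 0.000367). Cyp2e1, which marks hepatocytes around the central vein, fell from 5828 and 9087 CPM to 76.9 and 90.9 (-6.47). Cyp2f2 and Cyp2e1, which mark different zones, were thus both lower. For Cyp7a1 the log2 fold change was -6.50 without con replicate 2, -10.23 for Cyp2f2 without Ht replicate 2, and -8.14 and -8.21 for Cyp7a1 and Cyp2f2 without the summed Ht sample.

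Sugar handling lost 13 of 15 members (median -5.04). Pck1 and G6pc, which carry the committed steps of gluconeogenesis, had log2 fold changes of -5.69 and -6.42. The members not called were Galk1, which acts in galactose metabolism (47.2 and 71.2 CPM in con and 42.1 and 38.8 CPM in Ht), and Pgm1 (12.6 and 10.7 CPM in con and 19.2 and 22.8 CPM in Ht). Pgm1 was called higher by total counts (2.04).

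Acute-phase proteins, secreted by hepatocytes under inflammation, did not move as a block: 14 of 20 were lower and 1 was higher (median -2.97, and -3.57 without con replicate 2). C3, the central complement component, fell from 12039 and 7967 CPM to 503 and 826 (log2 fold change -3.91, SE 0.77, adjusted p = 0.00186). Hamp, which encodes the iron hormone hepcidin, fell from 1125 and 968 CPM to 4.85 and 10.2 (-7.13). Lcn2, an iron-scavenging protein also made by neutrophils and tumor cells, was the exception at 8.59 and 1.9 CPM in con and 32.4 and 55.6 CPM in Ht (log2 fold change 3.07, SE 0.76, adjusted p = 0.00606). Saa1 was lower (93.4 and 38.6 CPM in con and 7.21 and 6.44 CPM in Ht, -3.27), and its con samples differed by more than its Ht samples. The metallothionein Mt1 differed widely within con (460.5 and 74.8 CPM in con and 84.8 and 73.5 CPM in Ht) and was not called, whereas without con replicate 2 it was (log2 fold change -2.54, adjusted p = 0.0319), as it was with no filter (-1.63). For Lcn2 and Saa1 the log2 fold change was 4.53 and -2.50 without con replicate 1, 2.36 for Lcn2 without con replicate 2, and -7.75 for Hamp without Ht replicate 2.

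**Figure D2:**
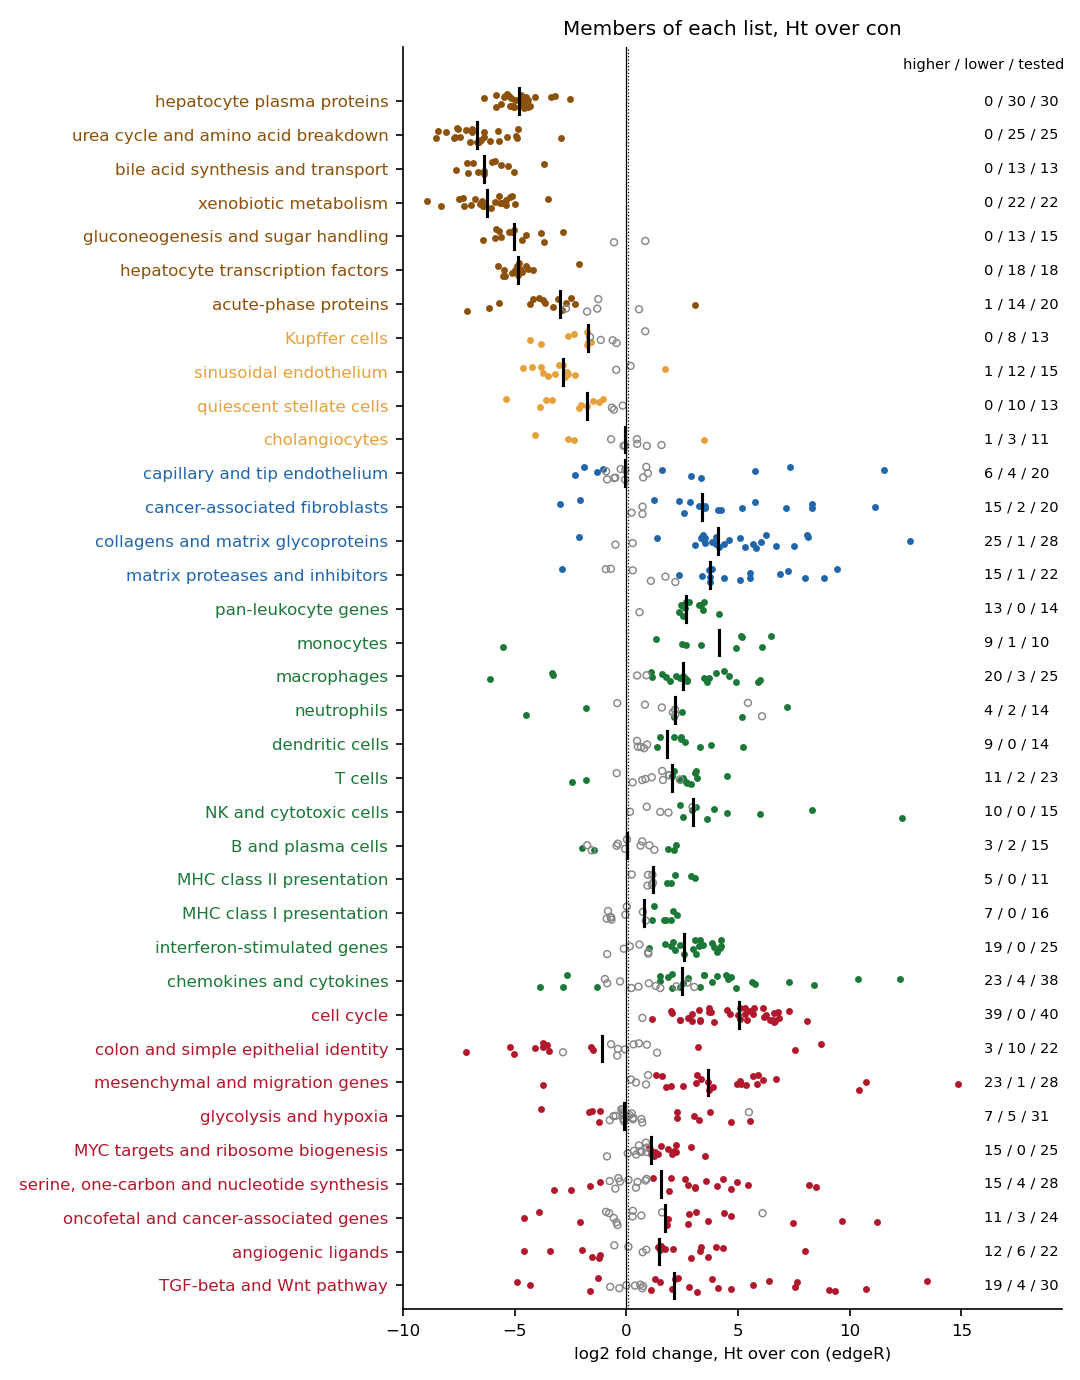
Log2 fold change (Ht over con) of every tested member of each list; filled points passed the test, open points did not, black bars are list medians, the dotted line is the median of all genes, and the numbers at the right count the members that were higher, lower and tested. The hepatocyte lists lie far to the left, the matrix, monocyte, cell cycle and mesenchymal lists to the right, the sinusoidal endothelium to the left, and the capillary and tip endothelium, glycolysis and B cell lists around 0.

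Lists of resident sinusoid cells had medians closer to 0 than the hepatocyte lists, though sinusoidal endothelium (-2.82) and acute-phase proteins (-2.97) lay close together. Without con replicate 1 the order of these lists turned (-2.54 and -2.49). Of the Kupffer cell list, 8 of 13 genes were lower and none was higher (median -1.70, or -0.51 under total-count scaling, where 4 were lower and 1 higher). Clec4f, the lectin specific to Kupffer cells, stood at 192 and 154 CPM in con and 24.8 and 43.4 CPM in Ht (log2 fold change -2.34, SE 0.62, adjusted p = 0.00864) and was lower under both scalings. Cd5l, a secreted protein of resident macrophages, fell from 159 and 115 CPM to 30.6 and 49.4 (-1.77), but its call was lost under total-count scaling (-0.59). Vsig4, the complement receptor of these cells, behaved in the same way (55.1 and 36.1 CPM in con and 10.7 and 16.1 CPM in Ht, -1.77, and -0.58 under total counts). The largest drops in this list were those of C6 (-4.32) and Nr1h3 (-3.81), a complement component and an oxysterol receptor that hepatocytes also express. Calls in this list leaned on single samples: without the summed Ht sample Clec4f was not called (log2 fold change -1.99, adjusted p = 0.0683), and Cd5l and Vsig4 were not called without con replicate 1 either (log2 fold change -1.52, adjusted p = 0.0829; log2 fold change -1.44, adjusted p = 0.098).

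Sinusoidal endothelium lost 12 of 15 genes (median -2.82). Stab2, a scavenger receptor of these vessels, fell from 108 and 93.5 CPM to 6.75 and 11 (log2 fold change -3.51, SE 0.52, adjusted p = 0.000479). Clec4g and Dnase1l3, both restricted within liver largely to the sinusoid, had log2 fold changes of -4.64 and -4.22, and Gata4, the factor that sets sinusoidal identity, of -3.00. Stab1, a scavenger receptor shared with macrophages, went the other way, from 130.1 and 104 CPM to 379 and 387 (log2 fold change 1.71, SE 0.23, adjusted p = 0.000316). Stab1 and Stab2, which are paralogs, therefore moved in opposite directions. Among quiescent stellate cell genes, 10 of 13 were lower (median -1.77; 4 lower and 1 higher by total counts). Reln fell from 94.5 and 91.9 CPM to 8.74 and 10.1 (-3.31), and Cxcl12, the ligand of CXCR4 made by sinusoidal and stellate cells, from 374 and 380.5 CPM to 26.6 and 24.5 (log2 fold change -3.88, SE 0.48, adjusted p = 0.000227). Lrat, the enzyme that stores vitamin A in stellate cells, had 17.4 and 15.3 CPM in con and 4.9 and 6.82 CPM in Ht (-1.49, and -0.30 by total counts, where it was not called; log2 fold change -1.39, adjusted p = 0.0628 without con replicate 1; log2 fold change -1.26, adjusted p = 0.102 without the summed Ht sample). Bile duct genes showed 3 lower and 1 higher of 11 with TMM (median -0.06), and 5 higher and 3 lower by total counts (median 1.13). The gene higher with TMM was Spp1, which encodes osteopontin and is made by macrophages and tumor cells as well as ducts (40.1 and 29.1 CPM in con and 375 and 387 CPM in Ht, 3.46). For Dnase1l3 the log2 fold change was -4.92 without Ht replicate 2.

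General vessel genes moved in both directions. The general endothelial gene Cdh5, the cadherin of endothelial junctions (62 and 54.5 CPM in con and 55.9 and 56.9 CPM in Ht), was not called with TMM, its con and Ht samples overlapping, and was higher by total counts (1.14). Of 20 capillary and tip cell genes, 6 were higher and 4 lower, near the background shares of 25.8% and 24.1% (median -0.05, and 1.14 with 10 higher and 1 lower by total counts). Cd34, a sialomucin of capillary endothelium that sinusoids lack, rose from 5.75 and 1.65 CPM to 214 and 192 (log2 fold change 5.78, SE 0.62, adjusted p = 0.000139). Which cells carried it was not tested. In bigger metastases the study describes CD34 staining that nearly coincided with that of GFP on tumor cells. Aplnr, the apelin receptor of angiogenic endothelium, had 0 counts in both con samples and 17.4 and 20 CPM in Ht, at least 72.8-fold higher with 3 counts per library standing in for 0 (adjusted p = 0.000648). Its ligand Apln, a marker of tip cells, rose from 0.354 and 0.165 CPM to 43 and 42.3 (log2 fold change 7.34, SE 0.63, adjusted p = 9.02e-05). Unc5b, a netrin receptor of tip cells, rose as well (6.37 and 5.54 CPM in con and 61.6 and 58.7 CPM in Ht, 3.33). By contrast the main VEGF receptor of endothelium, Kdr, was lower at 87.5 and 90.6 CPM in con and 24.1 and 24.2 CPM in Ht (log2 fold change -1.88, SE 0.34, adjusted p = 0.00115), and so were the angiopoietin receptor Tek (29.2 and 23.4 CPM in con and 5.48 and 5.08 CPM in Ht, -2.31) and the Notch ligand Dll4 (15.5 and 11 CPM in con and 5.52 and 5.01 CPM in Ht, -1.33). By total counts only Tek of these 3 was still called, and Kdr stood at -0.70 and Dll4 at -0.14. Plvap, a protein of endothelial diaphragms, was lower with TMM (-1.03) but changed sign by total counts (0.15) and lost its call without con replicate 1 (log2 fold change -0.94, adjusted p = 0.0692) and without the summed Ht sample (log2 fold change -0.92, adjusted p = 0.0941). Its change was also under the fold threshold with no filter, with at least 10 counts in every library, with only con and Ht in the fit and without Ht replicate 1 (from -0.98 to -0.91). For Cd34 and Apln the log2 fold change was 6.93 and 7.96 without con replicate 1, and 5.14 for Cd34 without con replicate 2.

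Ligands that act on vessels changed in both directions, with 12 of 22 higher and 6 lower with TMM, and 15 higher and 2 lower by total counts. Vegfa, the main growth factor of endothelium, was lower: it had 83.7 and 104 CPM in con and 35.8 and 29.5 CPM in Ht (log2 fold change -1.52, SE 0.21, adjusted p = 0.000394), and -0.34 by total counts, where it was not called. Its relatives Vegfc and Vegfd, which act mainly on lymphatic endothelium, were higher (6.37 and 4.55 CPM in con and 24 and 22.9 CPM in Ht, 2.10; 1.95 and 1.24 CPM in con and 16 and 16 CPM in Ht, 3.32). Angpt1, the agonist of the Tek receptor, rose from 2.66 and 1.32 CPM to 24.4 and 24.9 (3.63), opposite to Tek. Sema3a, a guidance cue that repels endothelium and axons, had the largest change of the list, from 0.0885 and 0.248 CPM to 44.7 and 45.8 (adjusted p = 9.02e-05). Fgf1 and Ang, both at more than 150 CPM in each con sample, were lower (-4.58 and -3.40).

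Extracellular matrix genes rose broadly. Of 28 collagen and matrix glycoprotein genes, 25 were higher and 1 was lower (median 4.09; background 25.8% higher). Their summed level went from 3899 and 3848 CPM in con to 20898 and 19252 CPM in Ht. Col3a1, a fibrillar collagen (ENSMUSG00000026043, chr1:45311538-45349706), had 56.6 and 32.3 CPM in con and 4967 and 4329 CPM in Ht (log2 fold change 6.71, SE 0.68, adjusted p = 0.000119). The fibrillar Col1a1 rose from 16.8 and 6.7 CPM to 932 and 853 (6.25). The microfibrillar chains Col6a1 and Col6a2 had log2 fold changes of 7.49 and 8.14, and Col4a1 of basement membranes, already present in liver, of 3.38. Vcan, a proteoglycan of provisional matrix, had 0 and 2 counts in con and 34025 and 16645 counts in Ht, a ratio of 7191 times (95% counting interval 1991 to 59379). Thbs1, a regulator of angiogenesis and of TGF-beta activation, rose from 2.3 and 1.24 CPM to 469 and 481 (log2 fold change 8.07, SE 0.80, adjusted p = 0.000109). Col18a1, the source of endostatin and made by hepatocytes, was the lower member (1361 and 1509 CPM in con and 331 and 328 CPM in Ht, -2.12, and -0.94 by total counts, where it was not called). Fn1 was not called either way (1732 and 1747 CPM in con and 1240 and 1245 CPM in Ht). For Col1a1 the log2 fold change was 7.06 without con replicate 1.

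Markers of cancer-associated fibroblasts rose in 15 of 20 genes (median 3.38, 4.18 without con replicate 1, or 2.90 with genes at 0 in con set to their bound). Pdgfra, a receptor of fibroblasts, went from 13.5 and 7.86 CPM to 203 and 200.4 (log2 fold change 4.24, SE 0.41, adjusted p = 0.000107), and Pdgfrb, shared with pericytes, from 19.3 and 12.3 to 85.8 and 76.7 (2.36). Fap, the serine protease that names activated fibroblasts, had 1 count in all of con and 17.5 and 13.5 CPM in Ht, a ratio of 376 times (95% counting interval 67.4 to 14877). Acta2, the smooth muscle actin of myofibroblasts, reached 56.3 and 58.8 CPM from 6.99 and 3.06 (3.52). Fgf7, a fibroblast-derived growth factor of epithelium, had 0 counts in con and 14.6 and 13 CPM in Ht, at least 53.8-fold higher. Rgs5, a gene of pericytes, was lower instead (107 and 67.2 CPM in con and 17.8 and 23 CPM in Ht, -2.09, and -0.90 by total counts, where it was not called), as was Lrrc15 (2.98 lower on the log2 scale at under 3 CPM in every sample, and -1.81 by total counts, where it was not called). For Acta2 the log2 fold change was 4.23 without con replicate 1.

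Proteases and their inhibitors rose in 15 of 22 genes (median 3.73, and 3.01 for the members left with at least 10 counts in every library). Mmp9, a gelatinase, stood at 0.531 and 0.744 CPM in con and 159 and 170.4 CPM in Ht (log2 fold change 7.99, SE 0.56, adjusted p = 9.02e-05). Plat, tissue plasminogen activator, rose from 0.708 and 1.07 CPM to 149.7 and 126 (7.26). Mmp10, a stromelysin, had 0 counts in con and 4.33 and 4.28 CPM in Ht, at least 16.8-fold higher. Mmp19 was the member that fell (56.7 and 71 CPM in con and 7.78 and 9.37 CPM in Ht, -2.90).

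**Figure D3:**
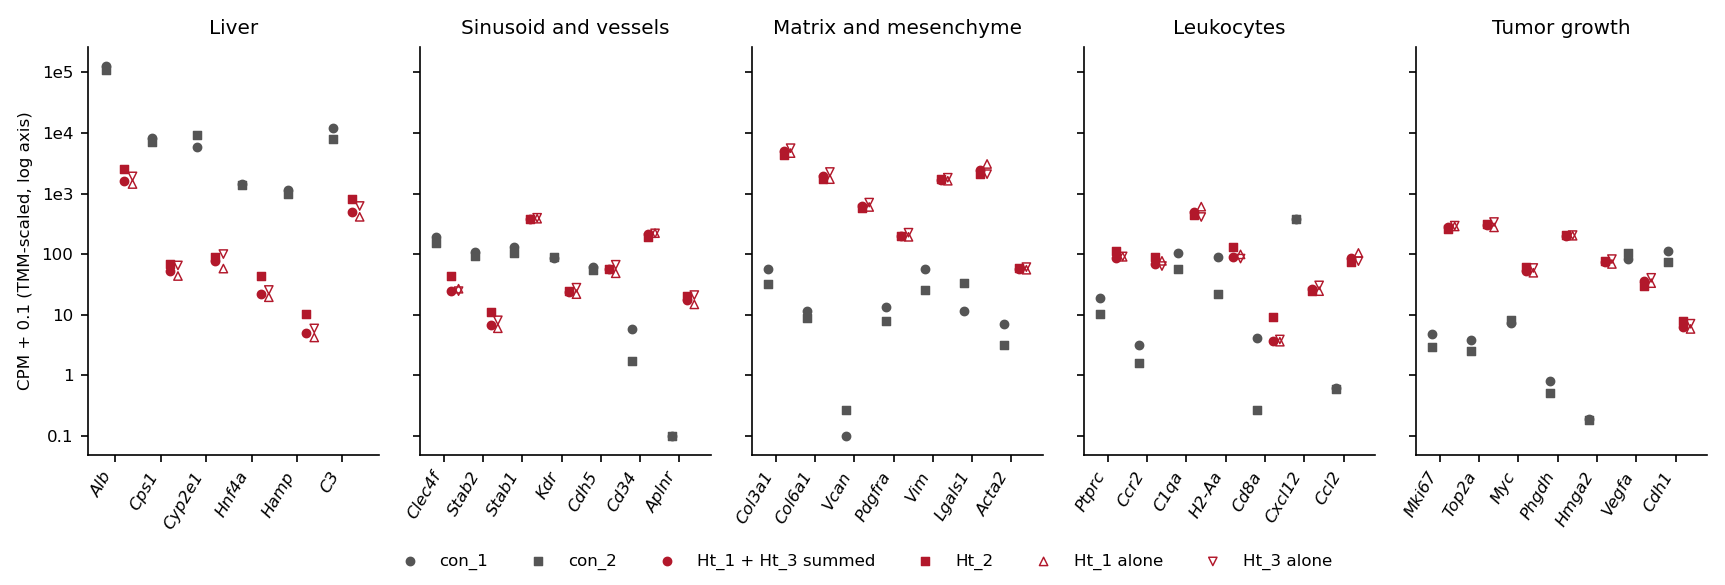
Levels of selected list members in each sample, in TMM-scaled CPM with 0.1 added on a log axis; grey symbols are con, filled red symbols are the Ht samples that were tested, and open red triangles are Ht replicates 1 and 3 before they were summed. The con samples spread widely for Cd8a, H2-Aa and Cd34, the Ht samples differ for Cd8a, Hamp and Hnf4a, and Cdh5 is level between the groups.

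Leukocyte transcripts were more abundant in Ht. Of the 14 genes shared by leukocytes, 13 were higher and none was lower (median 2.65; background 25.8% higher). Ptprc, the leukocyte antigen CD45, had 18.6 and 10.2 CPM in con and 88.1 and 112 CPM in Ht (log2 fold change 2.80, SE 0.46, adjusted p = 0.000747). Monocyte genes rose in 9 of 10 (median 4.13, 4.78 and 3.47 without con replicate 1 or 2, and 2.61 for the members left with at least 10 counts in every library). Ccr2, the receptor that draws monocytes from blood, rose from 3.1 and 1.49 CPM to 68.1 and 90.4 (log2 fold change 5.11, SE 0.65, adjusted p = 0.000266), and Itgam, which encodes CD11b, from 0.708 and 0.0827 CPM to 33.8 and 35.6 (6.46). Cx3cr1, the fractalkine receptor, went from 2.66 and 0.579 CPM to 103 and 113 (6.07). F10, coagulation factor X, was the lower member (701 and 609 CPM in con and 11.2 and 17.3 CPM in Ht, -5.52), and is secreted by hepatocytes. For Ccr2, Itgam and Cx3cr1 the log2 fold change was 5.73, 8.61 and 7.52 without con replicate 1, and 5.60 and 5.34 for Itgam and Cx3cr1 without con replicate 2.

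Macrophage genes were higher in 20 and lower in 3 of 25 (median 2.52). Adgre1, which encodes F4/80, rose from 47.2 and 29.5 CPM to 118 and 143 (log2 fold change 1.76, SE 0.30, adjusted p = 0.000883). The complement gene C1qa, a macrophage product, went from 106 and 56.7 CPM to 491 and 445 (2.52). Fcgr1, Ms4a7 and Trem2, which mark recruited or lipid-associated macrophages, had larger changes than Adgre1 as fitted values, with log2 fold changes of 4.36, 4.90 and 4.61; the differences between genes were not tested. Mrc1, the mannose receptor, was not called (128 and 98.3 CPM in con and 210.4 and 213 CPM in Ht, log2 fold change 0.90; log2 fold change 1.11, adjusted p = 0.00393 without con replicate 1). Mrc1 was called higher by total counts (2.09) and, just past the fold threshold, with either other filter on low counts (1.02 and 1.03). The lower members were Arg1, Apoe and Fabp5. Arg1 and Apoe are also the hepatocyte's arginase and apolipoprotein, and fell from 3554 and 2515 and from 23676 and 26233 CPM in con to 40.6 and 48.8 and 2486 and 2463 CPM in Ht. Apoe nevertheless remained among the 10 highest genes of Ht per length. Nos2, the inducible nitric oxide synthase, had 0 and 1 counts in con and stayed below 1 CPM in Ht (0.839 and 0.731 CPM), and its call as higher was lost on leaving out any con or Ht sample (adjusted p from 0.0563 to 0.144). In Kupffer cells and in the monocyte and macrophage lists the direction thus differed, with 0 of 13 resident markers higher against 9 of 10 monocyte markers. For Fcgr1 and Trem2 the log2 fold change was 5.09 and 5.56 without con replicate 1.

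Of 14 tested neutrophil genes, 4 were higher and 2 lower (10 higher and 1 lower by total counts), and no member reached 13 CPM in Ht. Summed over the list, the level was 52.3 and 87.3 CPM in con and 21.9 and 29.6 CPM in Ht. Most of the level in con came from the lower members, G0s2, an inhibitor of lipolysis (39.3 and 77.5 CPM in con and 2.31 and 2.85 CPM in Ht, -4.50), and Hdc, the enzyme that forms histamine (8.41 and 6.7 CPM in con and 2.37 and 1.98 CPM in Ht, -1.79, and -0.60 by total counts, where it was not called). S100a8, a subunit of calprotectin, stood at 0.354 and 0.579 CPM in con and 1.77 and 2.44 CPM in Ht (2.14), and Csf3r, the receptor of the granulocyte growth factor, at 2.83 and 1.32 CPM in con and 10.4 and 12.7 CPM in Ht (2.48). Ly6g, the defining surface marker, was not tested, with at most 0.209 CPM in any sample. Dendritic cell genes were higher in 9 of 14 (median 1.81; 14 higher and none lower by total counts; and 2.60 without con replicate 1). Those that define the cross-presenting subset, Xcr1 (0.797 and 0.91 CPM in con and 1.29 and 1.71 CPM in Ht) and Clec9a (2.83 and 2.48 CPM in con and 4.77 and 5.36 CPM in Ht), were not called. By total counts both were called (1.98 and 2.11), and Clec9a also with either other filter on low counts and without Ht replicate 3 (log2 fold change 1.00, adjusted p = 0.0454). Fscn1, an actin bundler of mature dendritic cells that carcinoma cells also make, rose from 9.38 and 7.69 CPM to 311 and 329.6 (5.23). For Csf3r the log2 fold change was 3.12 without con replicate 1.

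T cell genes were present at a few CPM. Of 23 genes, 11 were higher and 2 lower (median 2.02), against 17 higher and none lower by total counts (median 3.21). The TMM median was 3.55 without con replicate 1, 1.37 without con replicate 2 and 0.050 for the members left with at least 10 counts in every library. Cd3d, a chain of the T cell receptor complex, had 0.797 and 0 CPM in con and 2.35 and 2.65 CPM in Ht (log2 fold change 2.66, SE 0.96, adjusted p = 0.0354), while Cd3e was not called (2.21 and 0.248 CPM in con and 1.42 and 2.61 CPM in Ht). The call of Cd3d was lost without con replicate 2 (log2 fold change 1.64, adjusted p = 0.126) or either Ht sample. Cd8a ranged from 0.165 to 3.98 CPM within con alone and was 3.54 and 9.05 CPM in Ht (log2 fold change 1.60, adjusted p = 0.267). It was called without con replicate 1 (adjusted p = 0.0462) and with no filter. The inhibitory receptors Tigit (0.443 and 0 CPM in con and 4.44 and 5.78 CPM in Ht, 4.53) and Havcr2, which encodes TIM-3 (1.68 and 0.248 CPM in con and 7.38 and 9.16 CPM in Ht, 3.11), were higher, and Pdcd1, which encodes PD-1, was not called (1.42 and 0 CPM in con and 1.88 and 5.54 CPM in Ht, adjusted p = 0.0851). Pdcd1 was called without con replicate 1 (adjusted p = 0.0121), with DESeq2 (0.043), by total counts (0.0194) and with no filter. Foxp3, the factor of regulatory T cells, was at most 1.04 CPM in any sample. Zap70 and Tox, a kinase and a nuclear factor of T cells, were lower (from 17.4 and 12.1 CPM to 3.36 and 5.01 and from 4.87 and 7.2 CPM to 0.578 and 1.74), and by total counts neither was called (-0.63 and -1.23). Cd3d, Tigit and Pdcd1 had 0 counts in con replicate 2, so that a fold fitted against that sample alone depends on the prior count and is no bound. For Cd3d, Tigit and Havcr2 the log2 fold change was 8.70, 9.73 and 5.02 without con replicate 1, and 3.51 and 2.29 for Tigit and Havcr2 without con replicate 2.

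Con replicate 1 held more lymphocyte signal than con replicate 2: summed over the cytotoxic list the level was 29.0 and 4.30 CPM in con, and 107 and 116 CPM in Ht. Cytotoxic genes were higher in 10 of 15 (median 2.96, and 5.11 without con replicate 1 and 2.45 without con replicate 2). Gzmb and Prf1, the granzyme and the pore protein of killer cells, rose to 10.5 and 12.2 CPM (3.63; log2 fold change 2.83, adjusted p = 0.0673 without con replicate 2) and 5.24 and 6.58 CPM (4.49). Ncr1, the receptor that defines natural killer cells, rose from 0.177 and 0.165 CPM to 2.89 and 2.47 (3.92). Klra4, an activating receptor of the Ly49 family, stood apart from its list: it had 0 counts in con and 33.2 and 32.5 CPM in Ht, at least 128-fold higher (adjusted p = 0.000168). Members of that family are near copies of each other, so reads may be divided among them. Ifng was not tested, with at most 0.104 CPM in any sample. Of B and plasma cell genes, 3 were higher and 2 lower of 15, below both background shares (3 higher and none lower by total counts). The lower members Xbp1 and Sdc1, neither of which was called by total counts (-0.24 and -0.77), and Xbp1 not without con replicate 2 (log2 fold change -1.26, adjusted p = 0.0759) or either Ht sample, are also made by hepatocytes. For Gzmb and Prf1 the log2 fold change was 5.48 and 5.11 without con replicate 1.

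Antigen presentation genes of both classes included members that were higher. Among genes of MHC class I presentation 7 of 16 were higher and none was lower (11 higher and none lower by total counts). They included the transporters Tap1 and Tap2 (2.08 and 1.76), the proteasome subunit Psmb8 (2.26) and H2-Q4 (2.01), while the light chain B2m was not called (2199 and 1966 CPM in con and 1200 and 1356 CPM in Ht). In class II, 5 of 11 were higher (11 higher and none lower by total counts), among them the activator Ciita (3.81 and 1.57 CPM in con and 8.58 and 10.4 CPM in Ht, 1.82; log2 fold change 1.31, adjusted p = 0.0892 without con replicate 2) and Ctss, the protease that frees the peptide groove (70.5 and 36.2 CPM in con and 427 and 473 CPM in Ht, 3.08). The classical chain H2-Aa was not called, with con replicate 1 near the level of Ht (90.5 and 21.8 CPM in con and 88.7 and 132 CPM in Ht), and Cd74 showed the same spread (261 and 76 CPM in con and 248 and 401 CPM in Ht). By total counts, with no filter and without con replicate 1 both were called (without that replicate, log2 fold change 2.33, adjusted p = 0.00873 for H2-Aa and log2 fold change 2.09, adjusted p = 0.0188 for Cd74). The histocompatibility genes are near copies of one another and reads may be divided among them. For Ciita the log2 fold change was 2.59 without con replicate 1.

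Interferon-stimulated genes were higher in 19 of 25 tested (median 2.56), and none was lower. Isg15, a ubiquitin-like modifier, rose from 9.74 and 11.7 CPM to 112 and 93.4 (log2 fold change 3.26, SE 0.45, adjusted p = 0.00036), and Ifit1, a sensor of foreign RNA, from 12.8 and 16.5 CPM to 116 and 116 (2.98). Oasl2 and Oas1a had changes of 4.21 and 4.26. Cxcl10, a chemokine induced by interferon, was higher (3.54 and 3.23 CPM in con and 54.2 and 57.2 CPM in Ht, 4.04), whereas its relative Cxcl9, which depends on interferon gamma, was not called (55.5 and 10.7 CPM in con and 13.7 and 22.8 CPM in Ht). Irf7, a factor of the pathway, was higher (2.18).

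The promoters of Isg15 and Ifit1 are printed because 11 of the 19 interferon-stimulated genes with a promoter in the RefSeq table (57.9%) held the interferon response element in the 250 bases before the start, against 3.46% of all genes of the table. The element was searched as 2 copies of GAAA with any 2 bases between them, on both strands, and is shown in capitals within the 150 bases before the start (GRCm38.p6, 5′ to 3′ on the strand of the gene); overlapping matches were counted separately and run together in Isg15. Isg15 lies on the minus strand at chr4:156200819-156200968 and Ifit1 on the plus strand at chr19:34640739-34640888.
Isg15: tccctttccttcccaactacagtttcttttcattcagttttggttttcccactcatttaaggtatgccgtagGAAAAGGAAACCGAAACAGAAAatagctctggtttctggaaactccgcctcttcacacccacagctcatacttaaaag
Ifit1: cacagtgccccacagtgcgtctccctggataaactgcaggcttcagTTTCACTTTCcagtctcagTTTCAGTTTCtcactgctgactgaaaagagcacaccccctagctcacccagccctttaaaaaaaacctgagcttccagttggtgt
These counts describe letters and carry no statement about binding.

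Chemokines and cytokines rose in 23 of 38 genes and fell in 4 (27 higher and 2 lower by total counts). The ligands of CCR2 were among the largest changes: Ccl2 went from 0.531 and 0.496 CPM to 87.4 and 73.4 (log2 fold change 7.27, SE 0.69, adjusted p = 0.000101), Ccl7 had 2 counts in con and 30.4 and 32 CPM in Ht, and Ccl12 had 0 counts in con and 33.2 and 28.5 CPM in Ht (at least 120.1-fold higher). Csf1, the growth factor of macrophages, rose from 7.35 and 7.28 CPM to 173 and 154 (log2 fold change 4.48, SE 0.47, adjusted p = 0.00013), and Cx3cl1, the ligand of Cx3cr1, from 1.33 and 0.414 CPM to 48 and 47.3 (5.78). Lif, an interleukin-6 family cytokine, had 0 counts in con and 8.43 and 8.11 CPM in Ht, at least 32.2-fold higher. Ligand and receptor of the CCR2 and CX3CR1 axes were therefore both higher. The ligands of CXCR2 that draw neutrophils were low: Cxcl1 had 2.92 and 2.07 CPM in con and 2.22 and 3.66 CPM in Ht and was called higher by total counts (1.41, adjusted p = 0.0325), and Cxcl2 and Cxcl5 were under 0.5 CPM in every sample, with Cxcl5 called higher with no filter (2.84, adjusted p = 0.0481). Il1b (2.57 and 1.65 CPM in con and 0.746 and 1.46 CPM in Ht) was not called, and Cxcl12, Cxcl13, Il1a and Il18 were lower, of which Cxcl13 (-1.63) and Il18 (-0.11) were not called by total counts, nor Cxcl13 without con replicate 1 (log2 fold change -1.93, adjusted p = 0.093) or without the summed Ht sample (log2 fold change -2.14, adjusted p = 0.0769). For Cx3cl1 the log2 fold change was 6.83 without con replicate 1, and 5.16 for Cx3cl1 without con replicate 2.

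Cell cycle genes rose nearly as a whole: 39 of 40 were higher (median 5.04, and 3.82 for the members left with at least 10 counts in every library; background 25.8%), and con and Ht samples did not overlap for any of the list (85.7% of all tested genes did not overlap). The remaining member, Tk1, had 33.6 and 36.4 CPM in con and 55.7 and 59.8 CPM in Ht (0.72), and all 40 were higher under total-count scaling. Mki67, the proliferation antigen, stood at 4.69 and 2.9 CPM in con and 282 and 262 CPM in Ht (log2 fold change 6.16, SE 0.49, adjusted p = 9.02e-05). Top2a, the topoisomerase of dividing cells, rose from 3.81 and 2.4 CPM to 298 and 318 (log2 fold change 6.63, SE 0.54, adjusted p = 9.02e-05), and Cdk1, the mitotic kinase, from 1.59 and 2.32 CPM to 85.9 and 80 (5.40). Mybl2, a factor of the complex that drives mitotic genes, had the largest fitted change (0.177 and 0.165 CPM in con and 49 and 47.5 CPM in Ht, 8.09). The S phase genes Pcna (42 and 43.7 CPM in con and 173 and 177 CPM in Ht, 2.03) and Mcm7 (2.39) had smaller fitted changes than the mitotic genes Plk1 (6.84) and Bub1 (7.30). No test compared these genes, and the phases were not compared as lists.

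Promoters of Cdk1 and Top2a are given as examples of this list, in which 22 of the 31 genes with a promoter in the RefSeq table (71.0%) held the CCAAT box within 250 bases before the start, against 37.5% of all genes, and 10 (32.3%) held TTTGAA, the cell cycle homology element, against 18.3%. Capitals mark CCAAT and TTTGAA on either strand; the motifs do not overlap in these windows. Both genes lie on the minus strand of GRCm38.p6, Cdk1 at chr10:69352913-69353062 and Top2a at chr11:99024190-99024339, and the 150 bases before the start read 5′ to 3′ on that strand.
Cdk1: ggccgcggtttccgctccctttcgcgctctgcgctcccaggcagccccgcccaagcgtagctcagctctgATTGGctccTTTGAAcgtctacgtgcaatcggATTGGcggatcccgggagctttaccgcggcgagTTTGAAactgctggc
Top2a: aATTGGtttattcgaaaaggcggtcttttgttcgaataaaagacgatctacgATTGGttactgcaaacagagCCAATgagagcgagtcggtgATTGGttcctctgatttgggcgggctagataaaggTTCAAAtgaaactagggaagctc
In these windows Cdk1 held 2 CCAAT boxes and 2 homology elements, and Top2a 4 and 1.

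Of 25 genes of MYC and ribosome assembly, 15 were higher and none was lower (median 1.09), against 24 higher and none lower by total counts (median 2.28). Myc had 7.26 and 8.02 CPM in con and 52.5 and 61.1 CPM in Ht (log2 fold change 2.89, SE 0.29, adjusted p = 0.000117), and Npm1, a nucleolar chaperone, rose from 148 and 129 CPM to 701 and 611 (2.24). Serine and nucleotide synthesis showed 15 higher and 4 lower of 28 (20 higher and 2 lower by total counts). Phgdh, the first enzyme of serine synthesis, was near 0 in con and rose to 197 and 206 CPM (0.708 and 0.414 CPM in con; log2 fold change 8.48, SE 0.78, adjusted p = 9.16e-05). Psat1, the next enzyme, did the same (0.531 and 0.414 CPM in con and 132 and 143 CPM in Ht, 8.18). Mthfd2, the mitochondrial folate enzyme of growing cells, was higher (2.3 and 2.15 CPM in con and 57.6 and 56.1 CPM in Ht, 4.67), and the cytosolic Mthfd1 and Shmt1, abundant in liver, were lower (-2.49 and -3.23). The amino acid transporters Slc7a5 (2.83 and 3.23 CPM in con and 125 and 136 CPM in Ht, 5.43) and Slc1a5 (4.06) were higher.

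The count of glycolysis and hypoxia genes that rose depended on the scaling: 7 of 31 were higher and 5 lower with TMM, both shares below the background (median -0.11), and 19 were higher and 1 lower by total counts (median 1.08, against 1.28 for all genes). Single isoforms did change. Pkm, the pyruvate kinase of muscle and tumors, rose from 33.5 and 22.8 CPM to 755 and 697 (log2 fold change 4.69, SE 0.50, adjusted p = 0.000135), and the hexokinases Hk1 and Hk2 rose too (3.01 and 3.27). Slc16a3, the lactate exporter of glycolytic cells, rose from 1.33 and 0.414 CPM to 45.4 and 35 (5.54). Ldha was lower with TMM (1054 and 987 CPM in con and 441 and 436 CPM in Ht, -1.22) and at -0.03 by total counts, where it was not called, and its call was lost on leaving out any con or Ht sample (adjusted p from 0.0628 to 0.103). Among targets of hypoxia, Car9, a carbonic anhydrase, was higher but low, with 0 and 2 counts in con and 1.27 and 1.18 CPM in Ht. Its log2 fold change was 2.85 without con replicate 1 and 7.67 without con replicate 2. Bnip3, a mitophagy receptor, was lower under both scalings (200.3 and 149.9 CPM in con and 13.8 and 10.9 CPM in Ht, -3.82). The 13 transcripts of the mitochondrial genome were all lower (median -3.12, and -1.93 by total counts), with mt-Co1, a subunit of cytochrome oxidase, at 27648 and 31586 CPM in con and 4287 and 4684 CPM in Ht (log2 fold change -2.72, SE 0.66, adjusted p = 0.0058). The call of mt-Co1 was lost without either Ht sample (adjusted p = 0.0536 without replicate 2 and 0.0634 without the summed sample). For Slc16a3 the log2 fold change was 6.58 without con replicate 1, and 4.91 for Slc16a3 without con replicate 2.

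Markers of colon epithelium were largely absent from Ht, although the injected line derives from colon. The intestinal factors Cdx1 and Cdx2, the keratin Krt20 and the goblet cell mucin Muc2 were each at most 0.165 CPM in every sample and were not tested. Epcam, the pan-epithelial adhesion molecule, was at 1.77 and 1.41 CPM in con and 1.23 and 1.84 CPM in Ht. It was not called with TMM and was higher by total counts (1.13, adjusted p = 0.025). Cdh1, E-cadherin, was lower at 114 and 73.1 CPM in con and 6.19 and 7.76 CPM in Ht (log2 fold change -3.75, SE 0.57, adjusted p = 0.000532). Of 22 tested genes 3 were higher and 10 lower (6 higher and 8 lower by total counts). The higher members included Cdh17, the liver-intestine cadherin with 0 counts in con and 2.63 and 2.65 CPM in Ht, and the receptor Ephb2 (17.4 and 17.6 CPM in Ht, 2 counts in con). Among keratins of simple epithelium, which hepatocytes also make, Krt8 fell from 291 and 299 CPM to 65.2 and 134 (-1.57, and -0.39 by total counts, where it was not called; log2 fold change -1.14, adjusted p = 0.0727 without the summed Ht sample). For Krt8 the log2 fold change was -2.18 without Ht replicate 2.

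Mesenchymal genes rose in 23 of 28 (median 3.68). Vim, the intermediate filament of mesenchymal cells, had 57 and 25.8 CPM in con and 1670 and 1764 CPM in Ht (log2 fold change 5.37, SE 0.57, adjusted p = 0.000137), and Lgals1, a secreted galectin, 11.3 and 32.9 CPM in con and 2488 and 2070 CPM in Ht (log2 fold change 6.69, SE 0.71, adjusted p = 0.000132). S100a6, a calcium-binding protein, rose from 1.42 and 0.248 CPM to 1649 and 1131 (log2 fold change 10.71, SE 0.96, adjusted p = 9.16e-05). S100a4, a metastasis-associated relative, was higher but low, at 3.38 and 3.03 CPM in Ht with 2 counts in con. Its log2 fold change was 9.06 without con replicate 1 and 4.13 without con replicate 2. In the study, staining for S100A4 protein resembled that for GFP on tumor cells, and RNA counts do not measure protein. Twist1 and Prrx1, factors of mesenchymal cells, rose from under 2 CPM to 66 and 54.9 CPM (5.66) and 71.3 and 71.7 CPM (6.11), and Twist2 had 0 counts in con and 9.38 and 7.49 CPM in Ht. Cdh2, N-cadherin, which hepatocytes carry, was the lower member (107 and 112 CPM in con and 7.05 and 9.57 CPM in Ht, -3.72). Genes of fetal tissue that tumors re-express included Hmga2, a chromatin protein with 1 count in each con sample and 73.5 and 75.8 CPM in Ht, a ratio of 869 times (95% counting interval 240.4 to 7174), and Igf2bp1, an RNA-binding protein with 0 counts in con and 14.3 and 15.6 CPM in Ht, at least 58.1-fold higher. Afp, the fetal serum protein, was at 1.5 and 1.9 CPM in con and 1.06 and 1.46 CPM in Ht. Of this list 11 of 24 tested genes were higher and 3 lower (14 higher and 2 lower by total counts). Among growth factor receptors Erbb2 was higher (2.66 and 1.99 CPM in con and 20.8 and 19.1 CPM in Ht, 3.10), and Egfr and Erbb3, both abundant in liver, were lower (546 and 624 CPM in con and 40.5 and 38.4 CPM in Ht, -3.89; -4.59). For Vim, S100a6 and Twist1 the log2 fold change was 6.05, 12.42 and 5.05 without con replicate 1, and 7.65, 9.93 and 6.81 for Lgals1, S100a6 and Twist1 without con replicate 2.

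Signals of the TGF-beta and Wnt families rose in 19 of 30 genes and fell in 4 (24 higher and 2 lower by total counts). Among TGF-beta ligands, Tgfb1 had 19.6 and 14.2 CPM in con and 68.6 and 72 CPM in Ht (log2 fold change 2.06, SE 0.31, adjusted p = 0.000518) and Tgfb3 2.04 and 0.91 CPM in con and 37.2 and 37.7 CPM in Ht (4.67), and the receptor Tgfbr2 rose from 38.7 and 47.7 CPM to 204 and 218 (2.29). Grem1, a secreted antagonist of BMP signals, had 0 counts in con and 70.3 and 72 CPM in Ht, at least 277-fold higher. Wnt ligands were higher in all 4 listed: Wnt5a (0.354 and 2.56 CPM in con and 78.2 and 71.8 CPM in Ht, 5.66), Wnt7b with 3 counts in con and 72.8 and 74 CPM in Ht, Wnt6 with 0 counts in con, and Wnt10a with 2. Their receptor Fzd2 rose to 67.6 and 62.7 CPM and the antagonist Dkk2 to 64.5 and 55.8 CPM. Feedback targets of Wnt signaling that mark the hepatocytes around central veins went the other way, with Notum at 14.2 and 37.3 CPM in con and 0.932 and 0.801 CPM in Ht (-4.87) and Rnf43 at 33.6 and 53.1 CPM in con and 1.94 and 2.4 CPM in Ht (-4.33), whereas Axin2, a general target, was not called with TMM (13.2 and 19.9 CPM in con and 26.6 and 22.3 CPM in Ht) and was higher by total counts (1.74, adjusted p = 0.00556). For Tgfb3 and Wnt5a the log2 fold change was 5.35 and 4.87 without con replicate 1, and 7.70 and -4.01 for Wnt5a and Notum without con replicate 2.

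Ranked over all genes by the rule for named genes, the 10 with the largest increase included Stra6, Flnc, Lgals7, Apod, Grem1, Pcdh19, Osr2, Vcan and Bcat1. Of those named, all but Vcan had 0 counts in both con samples. Stra6, the receptor for retinol-binding protein, had 229 and 218 CPM in Ht, at least 870.5-fold higher (adjusted p = 9.16e-05). Flnc, an actin crosslinker of muscle, had 186 and 179 CPM, at least 710.5-fold higher. Osr2, a transcription factor of palate and limb, reached 68.2 and 57.7 CPM. Bcat1, the cytosolic enzyme of branched-chain amino acid transfer, reached 39 and 41.6 CPM.

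The 10 with the largest decrease were Mup8, Cyp2b10, Gm31583, Mup12, Hsd3b5, Mup17, Mup2, Gm44787, Aqp4 and Car3. The major urinary proteins (Mup), pheromone carriers secreted by liver, differed greatly within con: Mup8 had 3 counts in con replicate 1 and 4946 in con replicate 2, and Mup17 had 12 and 11741. Without con replicate 2 neither was called (log2 fold change -5.49, adjusted p = 0.276 for Mup8 and log2 fold change -1.77, adjusted p = 0.416 for Mup17), and Mup17 not without either Ht sample. As a family of near-identical genes they may share reads. Car3, a carbonic anhydrase of liver and muscle, was steadier (1820 and 3910 CPM in con and 2.63 and 2.26 CPM in Ht, log2 fold change -10.19, SE 1.31, adjusted p = 0.000267). Hsd3b5, a steroid dehydrogenase of male liver, went from 169.9 and 299 CPM to 0.224 and 0 (-10.68). For Car3 the log2 fold change was -9.53 without con replicate 2, -9.99 for Hsd3b5 without Ht replicate 2, -11.52 for Hsd3b5 without Ht replicate 3, and -14.98 for Hsd3b5 without the summed Ht sample.

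Per length, in TPM (read counts divided by gene length and scaled to a common total; mean ± SD, n = 2), the highest genes of con were Alb (86254 ± 9957), mt-Co1, Apoa2, mt-Cytb, Apoe, Apoa1, Serpina3k, Mup3, Serpina1e and mt-Nd2. In Ht they were Gm23935, mt-Co1, Lgals1 (11963 ± 1276 against 41.7 ± 29.0 in con), Rplp1, Eef1a1, Fth1, mt-Cytb, B2m, Rplp0 and Apoe. Gm23935 is annotated as a miRNA 57 bases long, and its TPM rests on that short length with a wide spread in Ht (23166 ± 11804). The highest genes of con encode secreted proteins and mitochondrial transcripts. In Ht, mt-Co1, mt-Cytb and Apoe were again among the highest, beside a galectin, ribosomal and translation proteins, ferritin and B2m. Genes at 1 TPM or more numbered 12387 and 12342 in con and 15510 and 15282 in Ht.

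Levels in macrophages sorted from another part of the series were set beside these values. F4/80+TAM and CD11b+TAM, with 3 libraries each, were selected by F4/80 or CD11b microbeads from medium-content tumor at day 11 (1000000 MC38 cells, WT mice), not from Ht, and were counted in a separate table. Their libraries had Xist at 971 and 731 CPM and no count of the 4 Y-linked genes, as in female tissue, and con and Ht had the reverse. All libraries were scaled together by TMM for this description, and no test was run across the tables. Of the 4437 genes higher in Ht than in con, 952 (21.5%) were at 2 or more times the Ht level in both sorted populations, 529 (11.9%) were at most 1/10 of it in both, and 2956 (66.6%) were neither. All 13 higher pan-leukocyte genes and 8 of the 9 higher monocyte genes were in the first set, with Cx3cr1 at 113 CPM in Ht, 757 CPM in F4/80+TAM and 553 CPM in CD11b+TAM. Of the 25 higher matrix genes 18 were in the second set, with Col3a1 at 4885 CPM in Ht, 314 CPM in F4/80+TAM and 172 CPM in CD11b+TAM, and so were 10 of the 15 higher fibroblast genes, with Pdgfra at 212 CPM in Ht, 12.7 CPM in F4/80+TAM and 6.69 CPM in CD11b+TAM. Cell cycle genes were in neither set, with Mki67 at 286 CPM in Ht, 159 CPM in F4/80+TAM and 139 CPM in CD11b+TAM. Interferon-stimulated genes were divided, 9 of 19 in the first set and none in the second. Immediate-early genes were also high in the sorted cells, with Fos at 8.97 CPM in Ht, 2545 CPM in F4/80+TAM and 2268 CPM in CD11b+TAM. Klra4, listed with killer cells, was in the second set (34.5 CPM in Ht, 2.26 CPM in F4/80+TAM and 1.6 CPM in CD11b+TAM), as were Cd34 (213 CPM in Ht, 20.4 CPM in F4/80+TAM and 13.7 CPM in CD11b+TAM), Phgdh and Hmga2.

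**Figure D4:**
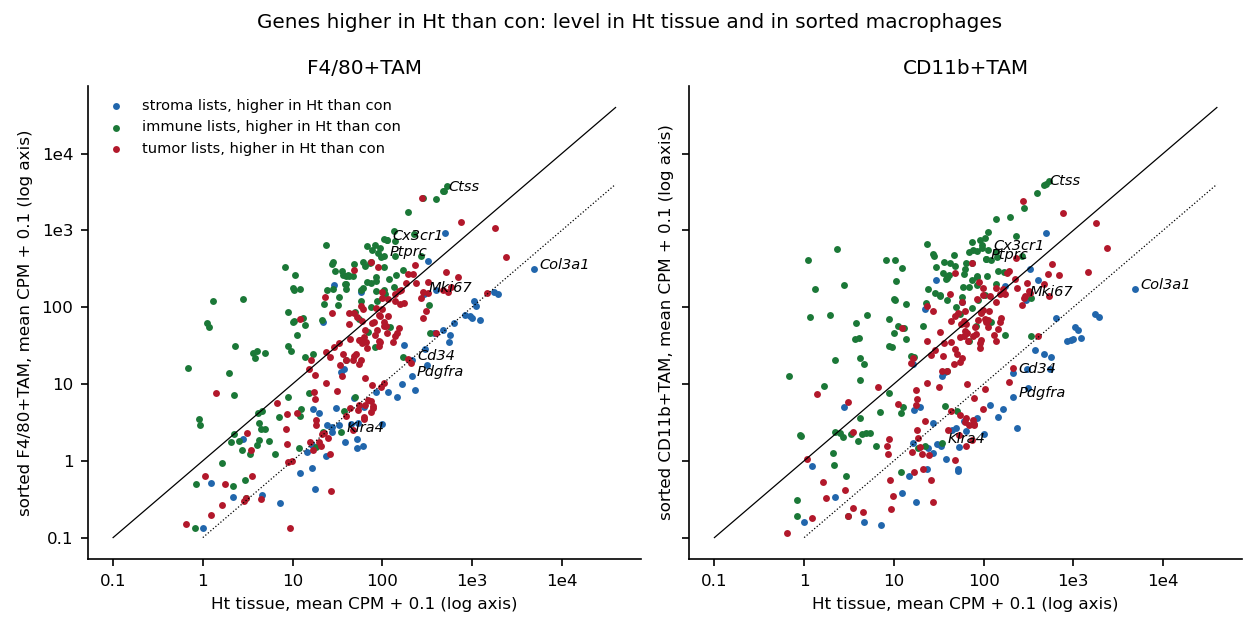
Mean level in Ht tissue (horizontal axis) and in sorted F4/80+TAM (left) or CD11b+TAM (right, vertical axes) of list members that were higher in Ht than in con, in jointly scaled CPM with 0.1 added on log axes; the solid line marks equal levels and the dotted line 1/10 of the Ht level. Immune genes lie mostly above the solid line, and matrix genes such as Col3a1 lie near or below the dotted line.

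Several checks bear on the labels and on other tissue in the samples. The Y-linked genes Ddx3y, Eif2s3y, Kdm5d and Uty were read in every con and Ht sample and Xist had 0 counts in all, as in male tissue and as the labels have it. All 4 Y-linked genes were lower in Ht (Ddx3y: 125 and 102 CPM in con and 14.2 and 19.4 CPM in Ht, log2 fold change -2.75, SE 0.47, adjusted p = 0.00087; median of the 4 -2.39, or -1.21 by total counts, where Ddx3y and Eif2s3y were lower and Kdm5d (-0.34) and Uty (-0.88) were not called), while none of their 4 X-linked partners was called (median -0.40). The cause of this difference was not tested. Hemoglobin and other erythrocyte genes were lower in 5 of 6 (Hbb-bs: 192 and 98.8 CPM in con and 20 and 12.3 CPM in Ht). Of 7 mesothelial genes 2 were higher (5 higher and none lower by total counts). Msln rose from 0.531 and 0.165 CPM to 134 and 117 (log2 fold change 8.49, SE 0.63, adjusted p = 9.02e-05), while Wt1 was at 0 and 0.0827 CPM in con and 1.51 and 1.04 CPM in Ht and was not called (adjusted p = 0.0565). Its call depended on the fit, since it was called with DESeq2 (adjusted p = 0.021), the replicate block (0.0256), total-count scaling (0.0198), no filter, only con and Ht in the fit, Ht as 3 libraries, and without Ht replicate 1 (0.045). Exocrine pancreas markers were at most 0.496 CPM in every sample except Cela1 (19.9 and 38 CPM in con and 6.95 and 5.43 CPM in Ht), and none of 6 adipocyte genes was called. Stress and immediate-early genes were higher in 9 and lower in 3 of 20 with TMM, with 15 higher and none lower by total counts (Fos: 1.06 and 0.993 CPM in con and 7.42 and 9.64 CPM in Ht), and their part in the other results was not tested. The reference genes were no fixed point: with TMM 3 of 16 were higher, among them Actb (462 and 375 CPM in con and 1619 and 1771 CPM in Ht, 2.02), and 4 were lower, among them Sdha (751 and 863 CPM in con and 159 and 157 CPM in Ht, -2.35), with 7 higher and 1 lower by total counts. The median of these genes was -0.13 with TMM and 1.06 by total counts. Gapdh was read at only 3.1 and 4.47 CPM in con and 5.58 and 3.34 CPM in Ht, although it is a gene that nearly every cell uses, and it has many processed copies in the mouse genome, among which reads may be divided. For Msln the log2 fold change was 9.52 without con replicate 1, and 7.87 for Msln without con replicate 2.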

How the data were processed

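Bulk RNA-Sequencing of tissue aliquots was analysed from the gene table of raw read counts that the authors deposited, with 54532 genes. The submitters' processing notes name CASAVA, HISAT2 2.0.5, featureCounts 1.5.0-p3 and the builds GRCm38 and mm10, without saying which tool or build served which step. Libraries came from a NEBNext Ultra kit that is not stated to keep strand. Samples were grouped by their labels, no count column was left without a sample, and the methods give separate livers for the samples of a group, except that Ht replicates 1 and 3 were made to be identical. Their count columns were added. The p-values therefore measure the spread between samples, pooled over all 7 tissue groups and not over con and Ht alone. That spread includes uneven liver content within other groups. The liver lists took 19.65% and 8.151% of counts in the samples of Mt2, a medium-content group of day 11. In Mt1, another such group, they took 19.14% and 7.935%.

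Counts were fitted with edgeR 4.0.16 in R 4.3.3 (TMM, filterByExpr, glmQLFit, glmQLFTest, Benjamini-Hochberg) over 13 tissue libraries in 7 groups, so that all groups shared 1 estimate of the spread. The contrast was Ht against con. The SE is the log2 fold change divided by the square root of F. The con and Ht libraries held 16460310 to 18246623 counts, and the summed Ht sample 33483554. The floor used where a group had 0 counts was 3 counts per library, on the TMM scale 0.0559 to 0.266 CPM. Intervals and floors cover counting error only. On simulated counts of this comparison (16146 genes) 14.5% of 2-fold, 73.3% of 4-fold and 92.9% of 8-fold changes were recovered, and 3 unchanged genes were called.

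The members and gene lists were chosen with earlier results of these data known. Genes were named as members of a list (largest changes, those against the list, best-known members), as the 10 with the largest change each way among called genes with non-overlapping samples and a mean log2 CPM of at least 1, or as the 10 highest by TPM in con or Ht. TPM was computed here, with gene lengths as deposited. The sorted-cell counts were deposited as a separate table and joined by gene for a description. Promoters (RefSeq, GRCm38.p6) covered 250 bases before the start. The alternatives were DESeq2 1.42.0, RLE and total-count scaling, other filters, no fold threshold, other samples in the fit, a replicate block, and leaving out each replicate. Some genes that the naming rule covers are not reported here.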

Additional observations from a re-analysis of the deposited data

How the results depend on the processing

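The number of genes higher in Ht (4437) became 8822 with total-count scaling and 2851 with at least 10 counts in every library, a filter that tests fewer genes. The number lower (4139) became 2249 with total-count scaling, and higher calls went from 51.7% to 79.7% of all calls. The immune members called higher (131) became 82 with at least 10 counts in every library. Every other alternative left these counts and those of liver members lower (134), stroma members higher (61) and tumor members higher (142) within 1.5 times. DESeq2 gave 4514 higher and 4169 lower genes. Leaving out replicates gave 3881 to 4406 genes higher, 3597 to 4162 lower, 131 to 134 liver members lower, and 57 to 61 stroma, 103 to 142 immune and 134 to 142 tumor members higher. With a replicate block 4457 genes were higher and 4146 lower, and 134 liver, 61 stroma, 131 immune and 141 tumor members were called. Samples of con and Ht with the same number did not deviate together (r = -0.0822). With 2 samples a group this cannot show whether the numbers mark a pairing. Of 46 list medians, 45 moved by over 1.5 times with total-count scaling, 8 without con replicate 1, 5 without con replicate 2, and 8 with at least 10 counts in every library. Of 209 called named genes, 186 kept their call with total-count scaling, 22 lost it and Plvap changed sign (0.15). Without con replicate 1 or 2, 8 lost their call each, and 45 and 34 moved in fold by over 1.5 times; without Ht replicate 2 or the summed Ht sample, 7 and 15 lost it.

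Among named genes that were not called, the sign of the log2 fold change turned as follows. With total-count scaling it became 0.74 for Afp, 0.48 for B2m, 1.14 for Cdh5, 0.34 for Cxcl9, 0.69 for Eef1a1, 1.13 for Epcam, 0.70 for Fn1, 0.65 for Fth1, 0.63 for Galk1, 0.90 for Gm23935 and 0.23 for Il1b. With no filter it was 0.072 for Cdh5 and 0.061 for Epcam, with at least 10 counts in every library 0.081 and 0.064, and with only con and Ht in the fit 0.0054 for Cdh5. Leaving out 1 replicate at a time, it lay between -0.15 and 2.98 for Cd3e, -0.17 and 0.054 for Cdh5, -0.16 and 0.49 for Cxcl1, -1.61 and 0.77 for Cxcl9, -0.36 and 0.12 for Epcam, -1.10 and 0.20 for Gm23935, and -2.54 and 0.079 for Mt1. Without Ht replicates 1 and 3 together it was 0.22 for Epcam and -0.18 for Gapdh. The causes were not tested. In the simulated counts 14.5% of 2-fold changes were recovered, under a rule that itself asks for a difference of 2-fold or more. Whether recovery depended on the number of samples was not tested.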

Other observations

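The con samples were not alike for several groups of genes. Con replicate 1 was above con replicate 2 for class II genes (H2-Aa at 90.5 and 21.8 CPM), for Gzma, a granzyme of killer cells (10.6 and 0.414 CPM), for the stress gene Cdkn1a (214 and 72 CPM), for Tff3, a trefoil peptide of mucous epithelium (65.4 and 0.827 CPM), and for Lyve1, a hyaluronan receptor of sinusoids (114 and 24 CPM). Con replicate 2 was above con replicate 1 for the major urinary proteins, whose genes took 0.823% of counts in con replicate 1 and 2.10% in con replicate 2. In counts, the variance relative to sampling (chi-square over its degrees of freedom) was 51.3 between the con samples, 30.3 between Ht replicates 1 and 3, 29.1 between Ht replicates 1 and 2 and 13.2 between Ht replicates 2 and 3. By this measure Ht replicates 1 and 3 did not differ less from each other than either did from Ht replicate 2. The methods give a higher minimum squared correlation for Ht replicates 1 and 3 than for biological replicates.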
